A study of Arabidopsis thaliana with 6 samples.

Results

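The miR395 family of Arabidopsis thaliana was measured in small RNA libraries of aar2-1 mutant and wild-type (WT) seedlings. Its members were the table entries with a member named miR395. These were 2 of the 197 entries and covered 6 of the 242 miRNA names in the tables: 1 entry joined miR395a, miR395d and miR395e, and the other joined miR395b, miR395c and miR395f. They are called the a/d/e and the b/c/f entry below, and both were read in all 6 libraries. The libraries came from whole seedlings 14 days old that had been grown on 1/2 MS medium with 16 h of light a day, 3 libraries of aar2-1 and 3 of WT, described by the submitters as biological replicates. The labels do not describe the aar2-1 lesion or the ecotype of either genotype. AAR2 itself was not measured here, so the genotype labels could not be checked against it, and no tissue markers can be read from small RNAs. AAR2 is known from yeast as a factor in the assembly of a spliceosomal particle. The comparison of the genotypes asked how miR395 abundance differs in the mutant, and the comparison of the 2 entries asked whether the forms behave alike.

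Plant miRNAs are cut from hairpin precursors in the nucleus and guide Argonaute proteins to complementary transcripts. miR395 is known as the sulfate miRNA of plants: it accumulates when sulfate is short, and it guides cleavage of transcripts of ATP sulfurylases, the enzymes that activate sulfate at the entry to assimilation, and of the low-affinity sulfate transporter SULTR2;1, which moves sulfate in vascular tissue. Only small RNAs were profiled here, so neither the target transcripts nor the sulfate status of the seedlings was measured.

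The mature sequences, read from RefSeq's annotation of TAIR10.1, are shown first because they set the entries apart. Capitals mark the seed, bases 2 to 8.
miR395a, miR395d and miR395e: cUGAAGUGuuugggggaacuc
miR395b, miR395c and miR395f: cUGAAGUGuuuggggggacuc
Both forms are 21 bases long. They differ by 1 substitution, A17G, counted from 1 at the 5′ end with the base of the a/d/e form first. The seed was shared by 6 of the 428 annotated mature miRNAs, and all 6 were miR395 members. Each form matched the genome exactly at 3 places, which are its own 3 precursors. Reads of 1 form can therefore not be assigned to 1 of its 3 genes, and the values below are sums over them.

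The 6 precursors are printed because the tables pool them. Capitals mark the mature sequence, which lies on the 3′ arm in each.
MIR395a: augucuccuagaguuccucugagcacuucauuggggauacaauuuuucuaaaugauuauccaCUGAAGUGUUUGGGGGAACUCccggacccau
MIR395b: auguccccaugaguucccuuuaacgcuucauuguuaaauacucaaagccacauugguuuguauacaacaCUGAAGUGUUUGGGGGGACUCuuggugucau
MIR395c: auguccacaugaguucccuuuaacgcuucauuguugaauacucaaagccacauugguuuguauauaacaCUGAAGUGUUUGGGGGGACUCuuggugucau
MIR395d: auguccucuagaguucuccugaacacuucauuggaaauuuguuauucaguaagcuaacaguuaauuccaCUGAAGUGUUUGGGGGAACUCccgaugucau
MIR395e: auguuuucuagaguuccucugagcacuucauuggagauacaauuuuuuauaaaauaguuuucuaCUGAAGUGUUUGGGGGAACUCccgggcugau
MIR395f: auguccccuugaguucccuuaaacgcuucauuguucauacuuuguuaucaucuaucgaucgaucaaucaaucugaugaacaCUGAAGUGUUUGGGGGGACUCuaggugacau
All 6 genes lie on chromosome 1 in 2 groups of 3. MIR395a (AT1G26973, chr1:9363196-9363288, minus strand), MIR395b (AT1G26975, chr1:9364471-9364570, plus strand) and MIR395c (AT1G26985, chr1:9367080-9367179, plus strand) span 3984 bp. MIR395d (AT1G69792, chr1:26269979-26270078, minus strand), MIR395e (AT1G69795, chr1:26272776-26272870, minus strand) and MIR395f (AT1G69797, chr1:26273858-26273969, plus strand) span 3991 bp, and the groups are 16902800 bp apart. No other annotated gene overlaps any of the mature sequences, so all are intergenic. The a/d/e form comes from 1 gene of the first group and 2 of the second, always from the minus strand. The b/c/f form comes from 2 genes of the first group and 1 of the second, always from the plus strand. Over whole precursors, pairs with the same form shared 72.4% to 97.0% of aligned bases, with MIR395b and MIR395c the most alike, and pairs with different forms shared 62.1% to 70.4%. Folding predicted a minimum free energy from -38.6 kcal/mol for MIR395e to -53.1 kcal/mol for MIR395f, with 19 or 20 of the 21 mature bases paired.

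**Figure D1:**
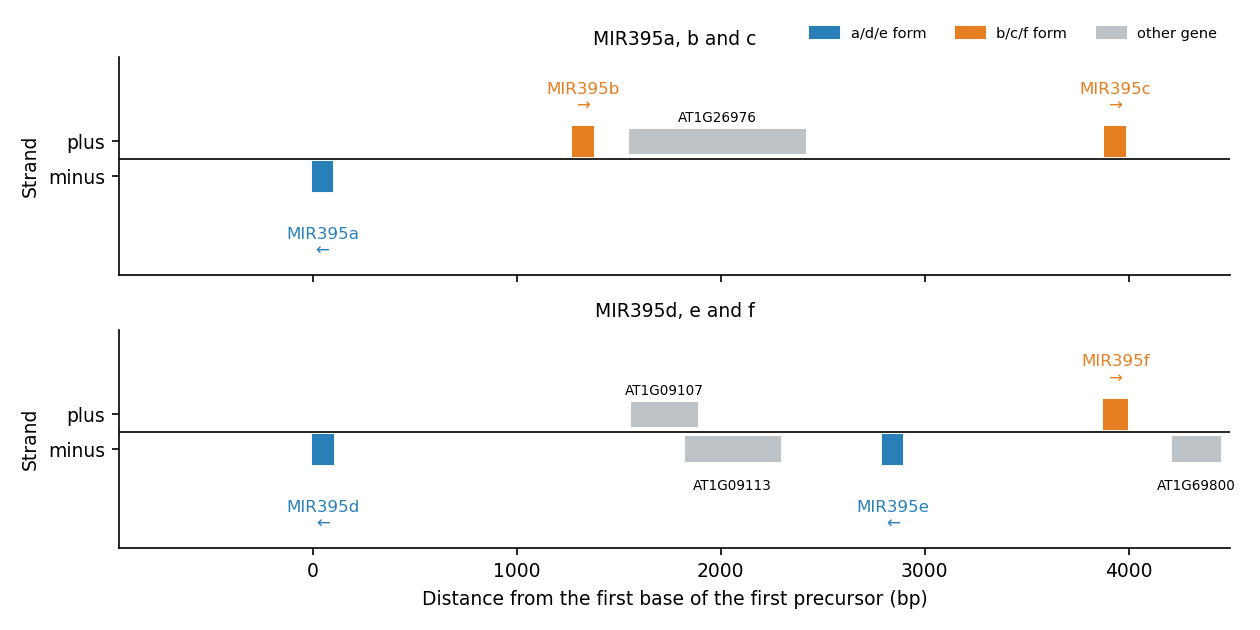
Positions of the MIR395 precursors in the 2 groups on chromosome 1, as the distance in bp from the first base of the first precursor, with the plus strand above and the minus strand below the line. The precursors of the a/d/e form (blue) all point left on the minus strand and those of the b/c/f form (orange) all point right on the plus strand, and each group spans 3984 or 3991 bp; grey boxes are other annotated genes.

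Position 17, where the forms differ, pairs with the fifth base of a target site. The sites with the fewest mispairs in the transcripts of APS1, APS3 and APS4 (ATP sulfurylases), of SULTR2;1 and of APS2, an ATP sulfurylase that is not a known miR395 target, are given with that base in capitals.
APS1: gaguUccuccaaacucuucau
APS3: gaguUccuccaaacucuucau
APS4: gaguUccuccaaacacuucau
SULTR2;1: aaguUcucccaaacacuucaa
APS2: gcucUcuccuaaacagcuuag
The APS1 site lies at chr3:8113164-8113184 on the plus strand, the APS3 site at chr4:8414958-8414978 on the minus strand, the APS4 site at chr5:17591121-17591141 on the minus strand and the SULTR2;1 site at chr5:3193268-3193288 on the plus strand, each within 1 coding exon. In all of these sites the fifth base is U, which forms a Watson-Crick pair with the a/d/e form and a G:U pair with the b/c/f form. The sites of APS1 and APS3 are identical in sequence. They mispair with the a/d/e form at positions 1 and 7 and have a G:U pair at 14. APS4 mispairs with it at position 1 alone, with the same G:U pair, and SULTR2;1 at positions 1 and 21, with a G:U pair at 15. The b/c/f form adds 1 G:U pair, at position 17, to each. The APS2 site, at chr1:6915836-6915856 on the minus strand, had 5 mispairs and 3 G:U pairs with the a/d/e form. For the b/c/f form the same search picked another site in APS2.

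Abundance was taken to be in reads per 1000000 reads (RPM), a unit that the tables do not name. All 1182 values were whole multiples of the lowest non-zero value in the same library, taken here as 1 sequenced read, and the RPM denominators were then 7062198 to 11524176 reads. Reads of all miRNA entries together numbered 146758 to 318995 in aar2-1 and 449241 to 497904 in WT. Most miRNAs were lower in the mutant in these values, so miR395 is described below both as deposited and relative to the other miRNAs.

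Both forms of miR395 were lower in aar2-1 seedlings. The a/d/e entry had 56.7, 40.2 and 60.6 RPM in aar2-1 replicates 1 to 3, against 171, 232 and 173 RPM in WT replicates 1 to 3. It averaged 52.5 ± 10.8 RPM in aar2-1 and 192 ± 34.6 RPM in WT (SD, n = 3 each), 3.65-fold lower in the mutant. The highest mutant library lay below the lowest WT library, so the genotypes did not overlap. The b/c/f entry had 90.9, 77.0 and 105 RPM in aar2-1, against 303, 389 and 323 RPM in WT. Its means were 91.1 ± 14.2 RPM in aar2-1 and 338 ± 44.8 RPM in WT (SD, n = 3 each), 3.71-fold lower, again with no overlap. In both entries replicate 2 was the lowest of the aar2-1 libraries and replicate 2 the highest of the WT libraries. In reads, the a/d/e entry rested on 653, 284 and 534 in aar2-1 and 1600, 2260 and 1469 in WT, and the b/c/f entry on 1047, 544 and 929 in aar2-1 and 2843, 3794 and 2749 in WT. In whole seedlings, fewer cells that make miR395 and less miR395 per cell cannot be told apart.

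Summed over both forms, miR395 reached 148, 117 and 166 RPM in aar2-1, against 474, 621 and 496 RPM in WT. The sum was 144 ± 24.7 RPM in aar2-1 and 530.2 ± 79.1 RPM in WT (SD, n = 3 each), which is 27.1% of the WT mean. The lowest WT library exceeded the highest mutant library 2.85-fold (two-sided exact permutation p = 0.10, the smallest that 3 libraries against 3 allow). The spread between replicates, 17.2% of the mean in aar2-1 and 14.9% in WT, was larger than the counting error of a library, which was 2.43% to 3.48% in aar2-1 and 1.29% to 1.54% in WT.

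**Figure D2:**
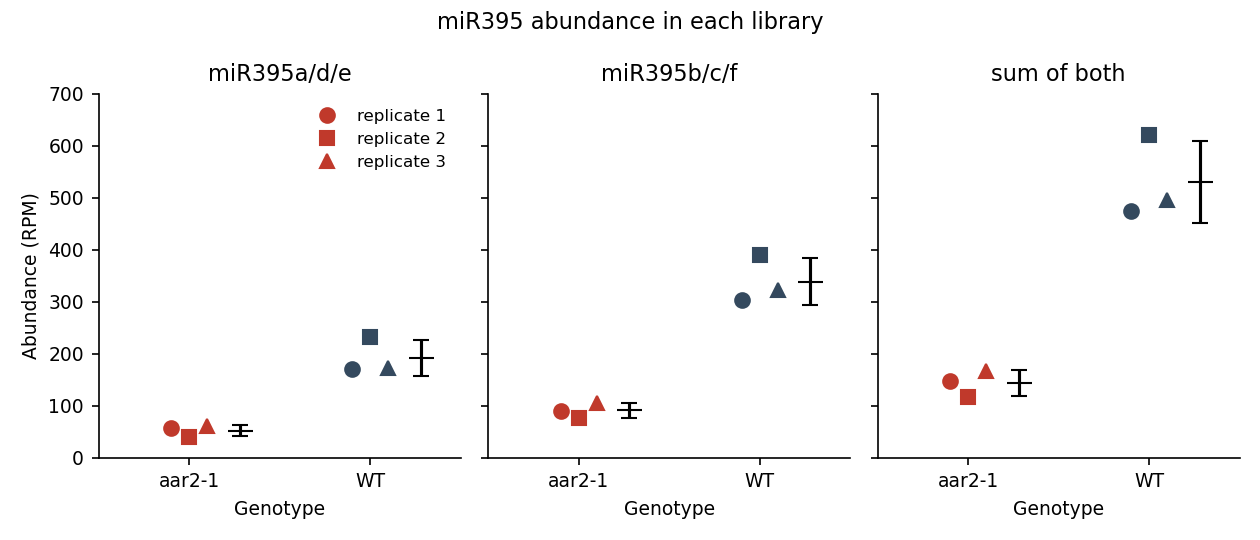
Abundance of the a/d/e entry, the b/c/f entry and their sum in RPM on linear axes, 1 point per library (circle, square and triangle for replicates 1, 2 and 3), with aar2-1 left of WT and the mean ± SD beside the points. In each panel the 3 aar2-1 libraries lie below the 3 WT libraries, and for the sum they lie at 117 to 166 RPM against 474 to 621 RPM.

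Across all 131 entries with a mean of at least 1 RPM, limma on log2(RPM + 1) called both miR395 entries lower in aar2-1 at an adjusted p under 0.05. The log2 fold change was -1.86 for the a/d/e entry (SE 0.30, 95% interval -2.50 to -1.21, limma adjusted p = 1.05e-04) and -1.89 for the b/c/f entry (SE 0.28, 95% interval -2.48 to -1.29, limma adjusted p = 4.51e-05). The background was high: 61.1% of the tested entries were called lower, and 59.5% were lower with no overlap between the genotypes. The median log2 fold change of the tested entries was -0.83, with quartiles of -1.31 and -0.56, so both miR395 entries lay below the lower quartile. Ordered from the largest decrease, they stood at places 13 (b/c/f) and 14 (a/d/e) of 131. These places depended on the pseudocount and the libraries. With 0.1 RPM they were 24 (b/c/f) and 26 (a/d/e), with the median at -1.03. With 5 RPM they were 11 and 13, with the median at -0.58, and without WT replicate 2 they were 20 and 24. With entries summed to families by miR number, miR395 fell by 1.88 on the log2 scale (SE 0.28; adjusted p in limma = 1.75e-04) and stood at place 10 of 76 tested families, of which 59.2% were called lower and 60.5% were lower with no overlap. The family stood at place 16 with a pseudocount of 0.1 RPM and at place 9 with 5 RPM.

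**Figure D3:**
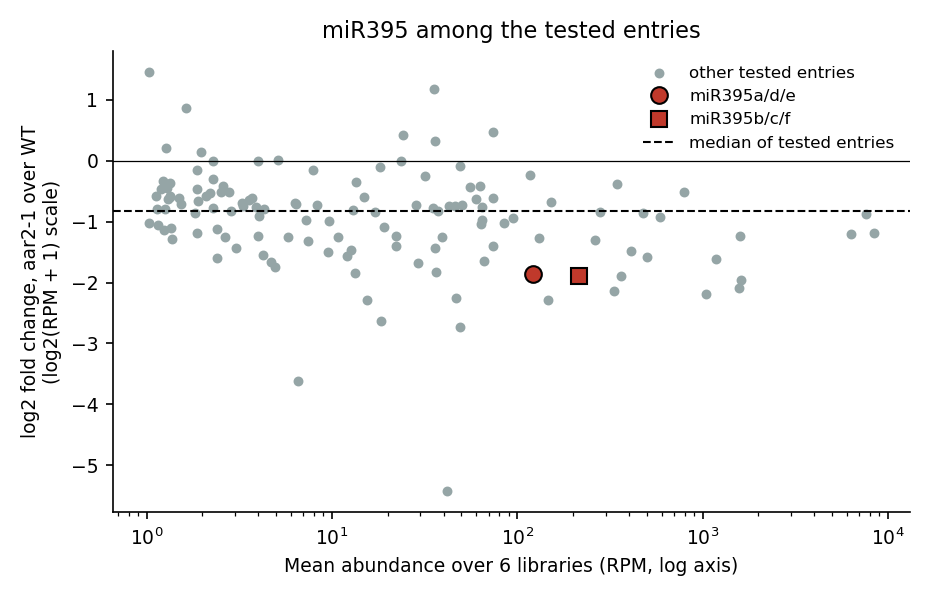
log2 fold change of each of the 131 tested entries, aar2-1 over WT on the log2(RPM + 1) scale, against its mean abundance over the 6 libraries in RPM on a log axis. The a/d/e (red circle, -1.86) and b/c/f (red square, -1.89) entries lie side by side below the dashed median of -0.83, and most grey points, the other entries, lie below 0.

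The size of the fall depended on what the libraries were scaled to. The median-ratio scaling, which assumes that the typical entry of 10 RPM or more does not differ, moved the median of the tested entries up by 0.84. The log2 fold changes were then -0.79 for the a/d/e entry (limma adjusted p = 0.0135) and -0.81 for the b/c/f entry (limma adjusted p = 0.00907), both still called lower, as were 20.6% of entries. Under quantile normalization, which raised the median by 0.89, the a/d/e entry had -0.83 (limma adjusted p = 0.0861) and the b/c/f entry -0.55 (limma adjusted p = 0.244), with 12.2% of entries called lower. When the median of every library was set equal, the median change moved up by 1.34, to a positive value of 0.52. The a/d/e entry then had -0.51 (limma adjusted p = 0.108) and the b/c/f entry -0.54 (limma adjusted p = 0.0849), with 9.16% called lower. Both entries thus kept a negative sign under the 3 scalings and stayed past the threshold under the median ratio. The split of called entries moved with the scaling, to 80 lower and 3 higher as deposited, 27 and 22 with the median ratio, 16 and 18 under quantile normalization and 12 and 55 after centring.

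**Figure D4:**
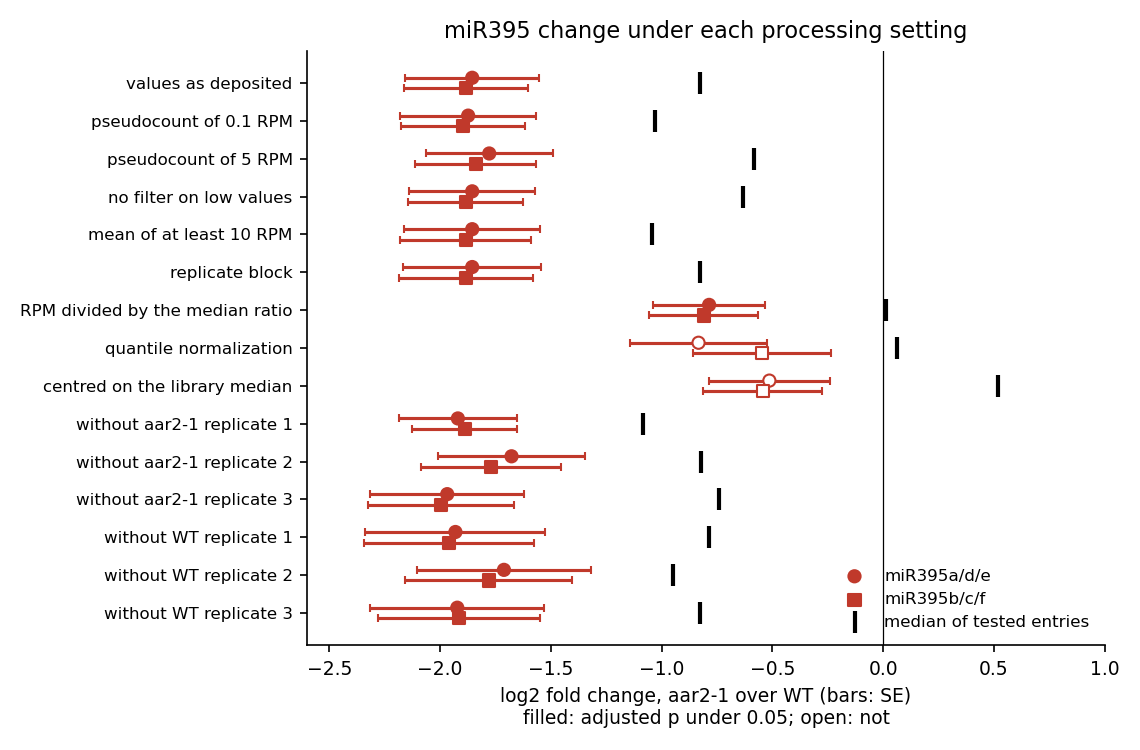
log2 fold change of the a/d/e (circles) and b/c/f (squares) entries, aar2-1 over WT, under each processing setting, with bars for the SE, filled symbols for a limma adjusted p under 0.05 and black ticks for the median of all tested entries. Both entries stay below 0 and to the left of the median throughout, between -1.996 and -1.68 in the fits on the deposited scale and between -0.83 and -0.51 under the 3 scalings.

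A measure that does not depend on the deposited denominator is the share of miR395 among the reads of all miRNA entries. It scales miR395 to the miRNA total instead. It was 0.533%, 0.564% and 0.901% in aar2-1 replicates 1 to 3, against 0.892%, 1.34% and 0.939% in WT replicates 1 to 3. The means were 0.666% ± 0.204 in aar2-1 and 1.06% ± 0.247 in WT (SD, n = 3 each). The genotypes overlapped: aar2-1 replicate 3, at 0.901% (95% Wilson interval 0.857 to 0.949), lay at the level of WT replicate 1, at 0.892% (0.867 to 0.919). The gap of -0.39 percentage points had p = 0.20 by two-sided exact permutation of the genotypes. The smallest p that 3 libraries against 3 allow is 0.10, so no gap in these shares could pass 0.05 by that test. aar2-1 replicate 3 combined the lowest miRNA total of its genotype, 18430.1 RPM against 20781 and 27681 in the other aar2-1 libraries, with the highest miR395 value. Likewise WT replicate 2 had the lowest WT total, 46282 RPM against 52817 and 53127, and the highest miR395 value. Without the 3 most abundant entries in the denominator the shares were 1.41%, 1.67% and 2.63% in aar2-1 and 2.08%, 3.37% and 2.43% in WT (two-sided exact permutation p = 0.30). Intervals here cover counting error only and not the spread between libraries. No molecular identifiers are stated for the reads.

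The forms were then compared with each other within each library. They differ by 1 base, and whether reads of either form were counted under the other was not tested. The b/c/f form was the more abundant in all 6 libraries, by 1.60-fold to 1.91-fold, with a mean log2 ratio of a/d/e over b/c/f of -0.82 ± 0.096 (SD, n = 6; two-sided exact sign-flip permutation p = 0.031, the smallest that 6 libraries allow). The a/d/e form made up 38.4%, 34.3% and 36.5% of miR395 reads in aar2-1, against 36.0%, 37.3% and 34.8% in WT. All 6 of the 95% Wilson intervals contained the stretch from 36.13% to 36.28%. The genotypes overlapped, with means of 36.4% ± 2.06 in aar2-1 and 36.1% ± 1.25 in WT (SD, n = 3 each). The log2 ratio was -0.81 ± 0.13 in aar2-1 and -0.83 ± 0.078 in WT, so that aar2-1 and WT differed by 0.022 (exact permutation, two-sided, p = 0.90). The 9 differences between a mutant and a WT library ran from -0.19 to 0.22 on the log2 scale. This range describes the libraries and is not a limit of detection. The smallest p that 3 libraries against 3 allow is 0.10, so this test could not pass 0.05 for a difference of any size. An unequal change of the forms is therefore not excluded at this depth and number of libraries.

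**Figure D5:**
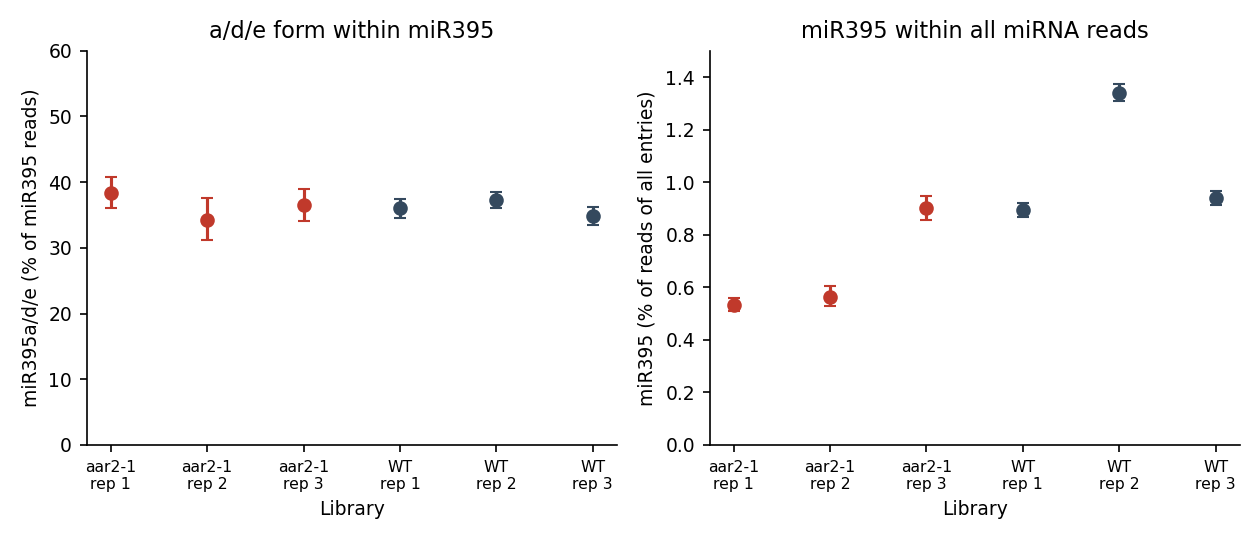
Left, the a/d/e form as percent of all miR395 reads in each library, and right, miR395 as percent of the reads of all miRNA entries, with aar2-1 (red) left of WT (dark) and bars for 95% Wilson intervals, which cover counting error only. The left panel stays between 34.3% and 38.4% in both genotypes, whereas the right panel spans 0.533% to 1.34%, with aar2-1 replicate 3 at the level of WT replicate 1.

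By level, miR395 was a family of middle to high abundance in both genotypes. It ranked 17 of 116 families by mean in aar2-1 and 15 in WT. In aar2-1 its libraries (117 to 166 RPM) overlapped those of miR157 (110 to 274 RPM) above it and of miR165 (115 to 179 RPM) and miR168 (79.6 to 179 RPM) below it, and lay under all libraries of miR163 (186 to 222 RPM). In WT its libraries (474 to 621 RPM) overlapped those of miR403 (506 to 786 RPM) and miR165 (509.9 to 621 RPM) above it, and lay over those of miR393 (353 to 448 RPM) below it. Among the 197 entries the b/c/f entry ranked 23, 23 and 17 in the aar2-1 libraries and 19, 16 and 19 in the WT libraries. The a/d/e entry ranked 36, 33 and 23 in aar2-1 and 23, 20 and 23 in WT.

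The entries with the pattern most like that of the miR395 sum were picked by the root-mean-square difference of mean-centred log2(RPM + 1) over the 6 libraries. The pick used the same values as the fits, so lower values in aar2-1 follow from it and a similar replicate order is favoured by it. The p-values below describe the picked entries and are no separate evidence of likeness. The miR395 entries themselves were at 0.055 (a/d/e) and 0.032 (b/c/f). Next came the entry joining miR162a-5p and miR162b-5p, from the precursors of the miRNA that targets DCL1, at 0.22, then miR846-3p at 0.23 and miR408-3p, a copper-responsive miRNA, at 0.26. The miR162 entry was rare, at 1.56, 0.991 and 2.61 RPM in aar2-1 and 6.83, 7.18 and 6.23 RPM in WT (limma adjusted p = 2.76e-04). miR846-3p had 16.1, 12.3 and 18.7 RPM in aar2-1 and 75.01, 76.3 and 81.5 RPM in WT (limma adjusted p = 2.33e-05). Like miR395 it was lowest in aar2-1 replicate 2 and highest there in replicate 3, but its WT replicate 3 was highest, unlike in miR395. miR408-3p had 188, 131 and 144 RPM in aar2-1 and 669, 539 and 513 RPM in WT (limma adjusted p = 4.01e-05). Its aar2-1 replicate 2 was lowest, as in miR395, but its WT replicate 1 was highest.

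Families that respond to nutrient supply were read as a list: miR395 for sulfate, miR399, miR827, miR2111 and miR778 for phosphate, miR397, miR398, miR408 and miR857 for copper, and miR169 for nitrogen. Of the 10 families 9 were tested, and miR778 was not analysed here. limma called 7 of the 9 lower and 0 higher, against a background of 59.2% of families called lower. All 9 of 9 had a negative log2 fold change, so none was higher at an unadjusted p under 0.05 either. A negative sign was common to most families, since the upper quartile over all 76 tested families was -0.52. The list's median log2 fold change was -1.56, against -0.86 over all 76 tested families, and miR395 had the third largest decrease. The largest decrease was that of miR827, which targets the ubiquitin ligase gene NLA in phosphate homeostasis, with 14.5, 9.77 and 10.7 RPM in aar2-1 and 116, 50.7 and 92.4 RPM in WT (log2 fold change -2.73 with an SE of 0.35, adjusted p in limma = 7.48e-05). The family of the largest mean, miR398, which targets copper superoxide dismutase transcripts, had 797, 496 and 619 RPM in aar2-1 and 2363, 1677 and 1575 RPM in WT (log2 fold change -1.56 with an SE of 0.26, adjusted p in limma = 3.79e-04). miR397, which targets laccase transcripts, differed least, with 8.68, 4.96 and 2.61 RPM in aar2-1 and 13.8, 4.51 and 7.41 RPM in WT (log2 fold change -0.57 with an SE of 0.41, adjusted p in limma = 0.228). With the median ratio 6 of the 9 were called lower, with quantile normalization 3 and after centring 4, and 0 were called higher in each of these limma fits. miR827 stayed negative under the 3 scalings, miR398 was at 0 under quantile normalization, and miR397 turned positive under all 3. So did miR857 and miR169, of which miR169 was 1 of the 7 called lower as deposited (log2 fold change -0.73, adjusted p in limma = 0.0421); these 2 families are named after their values were seen. For the miR395 family the values were -0.80 with the median ratio (limma adjusted p = 0.0177, with 27.6% of families called lower), -0.69 under quantile normalization (limma adjusted p = 0.0914, with 15.8%) and -0.78 after centring (limma adjusted p = 0.0156, with 18.4%).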

How the data were processed

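Small RNA libraries of 3 aar2-1 and 3 WT seedling samples were analysed, grouped by title. The deposited values were taken as RPM per miRNA entry, scaled by the authors with 1 factor per library. The unit was inferred from the values: all 1182 were whole multiples of 1 step per library within 0.001 reads. The reads in the denominator are not given in the sources used here, nor are the registry release, the lengths kept and the treatment of reads with several matches. Per the submitters' processing notes, cutadapt, Bowtie and TAIR10 were used. Entries with a mean of at least 1 RPM (131 of 197) were tested with limma 3.58.1 (R 4.3.3) on log2(RPM + 1) with a variance trend, genotype as the only factor, two-sided, with Benjamini-Hochberg adjustment over all tested entries or families; fold changes are on that scale. An entry that joins 2 miR numbers was summed under the first. The count models planned as alternatives were not run: all values were whole multiples, but the rule set for treating RPM as counts also asked for more low values per library than the tables hold. Single values per library were compared by exact permutation, with 0.5 reads added in log2 ratios. The fit was tested on simulated data in which entries were raised and lowered alike, without a shift shared by all entries. Its calls under a shared shift, as in these values, were not tested.

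Sequences, positions and transcripts come from RefSeq's TAIR10.1; the tables hold no coordinates. Target sites were scanned in transcripts of 31460 genes, with a penalty of 1 per mispair and 0.5 per G:U pair. Precursors were folded with RNAfold 2.7.2 and aligned with Biopython 1.88. scipy 1.17.1, numpy 2.4.6, pandas 2.3.3 and matplotlib 3.10.9 under Python 3.11.15 were also used. Named were all miR395 entries, the 3 most similar entries, and the strongest, weakest and most abundant families of the nutrient list. The members and lists were chosen with earlier results of these data known. The alternatives tried were other pseudocounts, filters and scalings, the replicate number as a block, and each library left out.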

Additional observations from a re-analysis of the deposited data

How the results depend on the processing

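The log2 fold changes of the a/d/e entry, the b/c/f entry and the family stayed negative and past the threshold with pseudocounts of 0.1 and 5 RPM, without a filter, with a mean of at least 10 RPM, and with the median ratio. Quantile normalization ended the call for the a/d/e entry (-0.83), the b/c/f entry (-0.55) and the family (-0.69). Centring ended it for the a/d/e (-0.51) and b/c/f (-0.54) entries but not for the family. The median change of the tested entries became positive under both, at 0.064 under quantile normalization and 0.52 after centring. Centring left the a/d/e and b/c/f entries as far from that median as deposited, at -1.03 and -1.06. With 1 library left out, the changes ran from -1.97 to -1.68 (a/d/e), -1.996 to -1.77 (b/c/f) and -1.99 to -1.74 (family), with limma adjusted p-values of at most 0.00297. The difference in total miR395 ran from -415 to -341 RPM, that in its share from -0.51 to -0.25 percentage points, and that in the log2 ratio of the forms from -0.041 to 0.087; the ratio difference was -0.041 without aar2-1 replicate 1 and -0.017 without WT replicate 3. The mean log2 ratio ran from -0.84 to -0.79, with an exact sign-flip permutation p of 0.0625, the smallest that 5 libraries allow.

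The called entries (83 as reported, and 62 to 109 with 1 library left out) numbered 45 with a mean of at least 10 RPM, 49 with the median ratio and 34 under quantile normalization. The called families (48 as reported, and 34 to 64) numbered 31 with a mean of at least 10 RPM, 24 under quantile normalization and 31 after centring. Same-numbered libraries deviated with correlations of 0.49, 0.05 and -0.15 over the tested entries, against a mean of -0.062 for libraries of different numbers. These few correlations cannot settle whether the numbers pair the samples, so the block fit is given as an alternative only. With the replicate block the log2 fold changes cannot move (-1.86, -1.89 and -1.88), and 98 entries and 56 families were called; 1 of 3 aar2-1 libraries correlated best with its own number. Exact sign-flip permutation with the block gave p = 0.25 for the total (-387 RPM) and the share (-0.39), the smallest possible, and p = 1.0 for the ratio (0.022). The fits on counts were not run. Depth limits the ratio of the forms most in aar2-1 replicate 2, with 284 reads of the a/d/e form.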

Other observations

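Over the transcripts of 31460 annotated genes, 10 genes held a site with a penalty of at most 3 for the a/d/e form and 9 for the b/c/f form. They included APS1, APS3, APS4 and SULTR2;1. The others were AT1G50930, AT2G20463, AT2G28780, LAC7 (a laccase), AT4G23840 and GUN5, the H subunit of magnesium chelatase in chlorophyll synthesis. AT2G28780 had a penalty of 1.5 with either form, because G stands opposite position 17 and pairs with neither; APS4 had 1.5 with the a/d/e form and 2.0 with the b/c/f form. These are sequence matches in transcripts that were not measured here.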
